A study of Mus musculus with 15 samples.

Results

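The 10 genes described here are growth factor receptors and the genes that switch on downstream of them: the receptors Egfr, Erbb2, Fgfr1, Fgfr2 and Fgfr3, and the feedback and target genes Spry1, Spry2, Spry4, Dusp6 and Etv5. They were chosen by gene symbol, with earlier results of these data known. Every probe set whose platform annotation gave 1 of these symbols was taken, which gave 10 of the 12393 genes measured, read by 20 of the 22626 probe sets tested, with 12 for the receptors and 8 for the feedback and target genes. All 10 genes were present, and no probe set listed a member together with another gene. Neural stem cells from female mice aged 6 weeks, of a strain written C57/B16 in the labels, were grown as neurospheres, floating clusters of cells. Cultures either received CD95L-T4, a trimeric construct of the CD95 (Fas) ligand, for 48 h or served as controls. RNA bound to polysomes, the mRNAs that carry several ribosomes, and total RNA were hybridised to Affymetrix mouse arrays. The groups were CD95L-T4 polysomal (n = 3 arrays), control polysomal (n = 4), CD95L-T4 total (n = 4) and control total (n = 4).

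Polysomal RNA was extracted with phenol and chloroform and labelled as polyA RNA, whereas total RNA was extracted with the mirVana column kit and labelled as total RNA. Fraction, extraction and the molecule named in the labels therefore cannot be told apart. Groups were read from the titles, since the treatment field of the CD95L-T4 samples gives just "mNSC". The titles call the replicates biological, but no label ties them to separate animals or isolations, so p-values measure the spread between these arrays. Array medians lay between 6.83 and 6.98 in log2, and arrays of 1 group correlated at 0.994 to 0.998. Markers of neural stem cells were bright, with 8 of 10 above the median brightness of all probe sets, as were 4 of 8 astrocyte, 3 of 8 oligodendrocyte-lineage and 3 of 9 neuronal markers. None of the 8 microglial, 7 endothelial, 6 fibroblast or 3 ependymal markers measured lay above it. Beta-actin read at its 3' minus its 5' end, which reflects RNA integrity and labelling, averaged 0.77 ± 0.23 in CD95L-T4 polysomal arrays (SD, n = 3) and 0.77 ± 0.03 in control polysomal arrays (n = 4), against 0.39 ± 0.07 in CD95L-T4 total and 0.41 ± 0.12 in control total arrays (n = 4 each). It moved with the RNA fraction, and its part in the fraction differences below was not tested. Added poly-A control transcripts averaged 9.71 in CD95L-T4 polysomal replicate 2, against 8.05 and 8.19 in the other CD95L-T4 polysomal arrays, so that array stands apart. CD95L-T4 polysomal replicate 3 also did, with a beta-actin 3' minus 5' value of 1.03, against 0.59 to 0.81 in the other polysomal arrays, and a Gapdh value of 0.22, against -0.05 to 0.09. Calls of members and of other genes named below that changed without either array, and counts of pathway lists that moved by 1.5 times or more, are given beside the result, and the part of control transcripts and 3' minus 5' values in them was not tested.

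EGF and FGF2 are the mitogens that keep neural stem cells dividing in neurosphere culture. Their receptors are tyrosine kinases of the cell membrane that signal through adaptors and RAS to the kinase ERK, and FGF receptors bind their ligands together with heparan sulphate chains. ERK then induces a set of genes that turn the signal down again, among them the Sprouty proteins and the phosphatase DUSP6, as well as transcription factors of the ETS family such as ETV5.

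The letters around the annotated start of each gene are shown because the first bases of an mRNA set apart a known class of transcripts under translational control, the 5' terminal oligopyrimidine class of ribosomal protein mRNAs, and the present data compare RNA on polysomes with total RNA. The windows come from RefSeq on build GRCm38.p6, and 10 windows of 8 of the 10 genes are shown. Fgfr1 and Spry4 are named without a sequence. Lower case marks the 15 bases before the annotated start, and capitals mark the 15 bases from the start onwards, read 5' to 3' on the strand of the gene.
Egfr, chr11:16752188-16752217, plus strand: ctcctcccgcccagcCTCCCCCAGTCCCGA
Erbb2, chr11:98412469-98412498, plus strand: aggaggagggctgctCGAGGAAGTGCGGCG
Fgfr2, chr7:130266794-130266823, minus strand: gttactctgcaggcaGATGTGCGGATAAGT
Fgfr3, first window, chr5:33721709-33721738, plus strand: ggggaaggggagtgtTCGGGGCGTGGCGGG
Fgfr3, second window, chr5:33722291-33722320, plus strand: gctctcctcctgtagTCTCCACAGAGGCGT
Spry1, chr3:37639932-37639961, plus strand: gctgcggagcccgcgCGCGAGTGCTCAGCA
Spry2, chr14:105896805-105896834, minus strand: gaaaaaggaaatactCCGCGTGCGCTTCTG
Dusp6, chr10:99263216-99263245, plus strand: acgctggctgtttgtATCCATTGAGGAGCT
Etv5, first window, chr16:22438354-22438383, minus strand: gactacgacgacacaAAGGAAGTGGTTTAA
Etv5, second window, chr16:22439556-22439585, minus strand: tcatccccgatcgctGCGGCCCAGCCCGCC
A start of the terminal oligopyrimidine kind was searched on the gene's strand as a C at the start followed by at least 4 bases that are each C or T. It was present in 1 of the 10 windows, that of Egfr, and in 823 of the 32851 windows of all genes (2.51%). Of the 73 windows of ribosomal protein genes, 13 held it (17.8%), so an annotated start often lacks these letters even in that class, and a window without them says nothing about the true first base.

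All values below are log2 signals of a probe set, and differences are differences of log2 signals. Levels of different probe sets are not set against each other, because probes differ in how strongly they bind. The arrays appear normalised to each other, to judge by nearly equal medians, though no label states it. Polysomal minus total is therefore read as a difference relative to the rest of the RNA in each fraction. Shifting the arrays to equal medians raised the median difference of all probe sets by 0.09 in both kinds of culture. A probe set was called where limma's moderated test, adjusted by Benjamini and Hochberg over all 22626 probe sets, gave p under 0.05. In bulk RNA, fewer cells that express a gene and less of its RNA per cell cannot be told apart.

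The first comparison asked how these mRNAs are distributed between polysomal and total RNA. Most receptor probe sets had a lower signal in polysomal RNA, in both kinds of culture. In CD95L-T4 cultures, 15 of the 20 member probe sets were lower, 2 were higher and 3 were not called, where 24.6% of all probe sets were lower, 26.7% higher and 51.3% called in either direction. In control cultures, 14 were lower, 1 was higher and 5 were not called, where 26.3% of all probe sets were lower, 29.8% higher and 56.1% called in either direction. Among the 12 receptor probe sets, 10 were lower in each kind of culture, with a median difference of -0.85 in CD95L-T4 and -0.87 in control cultures. Among the 8 probe sets of feedback and target genes, 5 were lower in CD95L-T4 cultures and 4 in control cultures, and 1 was higher in each, with medians of -0.40 and -0.37. With each gene represented by its brightest probe set, all 5 receptor genes were lower in both cultures, where 21.8% of all 12393 genes were lower and 29.6% higher in CD95L-T4 cultures, and 23.2% lower and 33.5% higher in control cultures. Of the 5 feedback and target genes, 3 were lower in CD95L-T4 and 2 in control cultures. How many of all probe sets had fractions that did not overlap was not counted, so such statements below describe single members only.

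**Figure D1:**
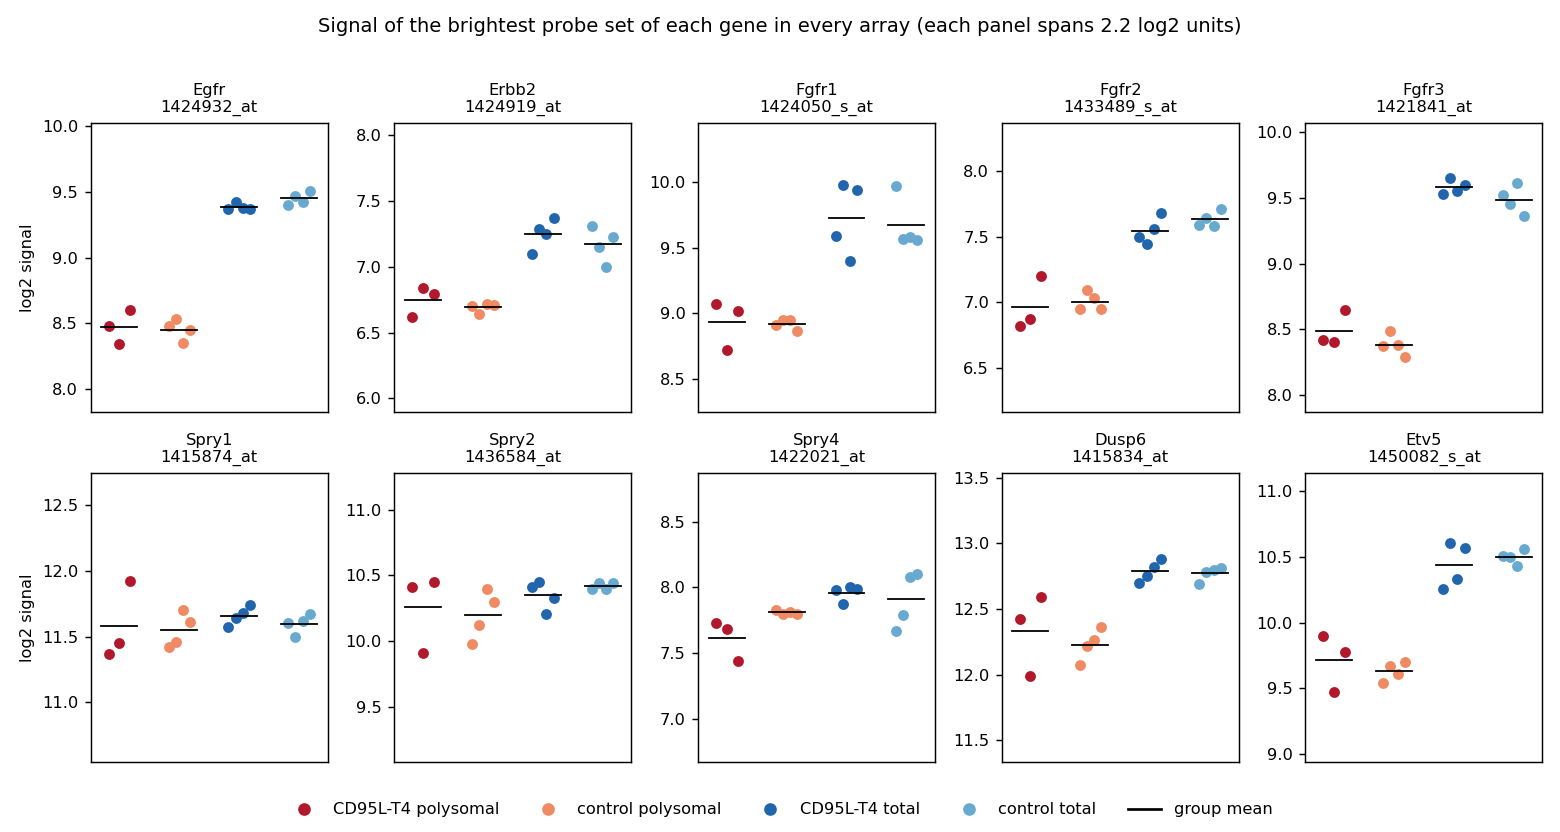
Log2 signal (vertical axes) of the brightest probe set of each of the 10 genes in every array, with CD95L-T4 polysomal, control polysomal, CD95L-T4 total and control total arrays from left to right; points are single arrays, bars are group means, and every panel spans the same log2 range. The polysomal points of all 5 receptors, Dusp6 and Etv5 lie below the total points in both kinds of culture, while those of Spry1 and Spry2 overlap them. How many of all genes separate in this way was not counted. Of all probe sets, 51.3% in CD95L-T4 and 56.1% in control cultures were called between the fractions.

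Egfr encodes the receptor of EGF and had 5 probe sets. For 1451530_at, the signal was 6.70, 6.81 and 6.70 in CD95L-T4 polysomal arrays, against 8.03, 8.18, 8.14 and 8.04 in CD95L-T4 total arrays. In control cultures it was 6.78, 6.92, 6.60 and 6.63 in polysomal arrays, against 8.11, 8.20, 8.14 and 8.30 in total arrays. Every polysomal array was more than 1 log2 unit below every total array. The difference was -1.36 ± 0.09 in CD95L-T4 cultures (SE, n = 3 and 4, limma adjusted p = 1.71e-09) and -1.46 ± 0.08 in control cultures (n = 4 and 4, limma adjusted p = 1.81e-10), a 2.57-fold and a 2.74-fold lower signal. In control cultures this placed it at percentile 2.33 of all differences, the lowest of the 20 members.

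The brightest Egfr probe set, 1424932_at, gave 8.48, 8.34 and 8.60 in CD95L-T4 polysomal arrays, against 9.37, 9.42, 9.38 and 9.37 in CD95L-T4 total arrays. Controls gave 8.48, 8.53, 8.35 and 8.45 in polysomal arrays, against 9.40, 9.47, 9.42 and 9.51 in total arrays. The groups again stood clear of each other, with differences of -0.91 ± 0.07 in CD95L-T4 and -1.0 ± 0.07 in control cultures (limma adjusted p = 2.12e-08 and 1.77e-09). The third, 1460420_a_at, averaged 7.83 ± 0.09 in CD95L-T4 polysomal arrays against 8.85 ± 0.17 in CD95L-T4 total arrays, and 7.87 ± 0.11 in control polysomal arrays against 8.99 ± 0.13 in control total arrays (SD). These 3 probe sets were all lower in polysomal RNA.

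The remaining Egfr probe sets, 1432647_at and 1454313_at, were the dimmest of the gene, at the 22.4th and 37.6th percentile of brightness. The platform annotation gives them the same source sequence, which is not that of the other 3. Probe set 1432647_at lay between 4.23 and 4.57 in all arrays and was not called in either culture (differences of 0.01 ± 0.09 in CD95L-T4 and 0.10 ± 0.08 in controls, limma adjusted p = 0.913 and 0.308). Probe set 1454313_at gave 5.83, 5.91 and 5.77 in CD95L-T4 polysomal arrays, against 5.57, 5.56, 5.56 and 5.59 in CD95L-T4 total arrays. It was therefore higher in polysomal RNA there, by 0.27 ± 0.07 (limma adjusted p = 0.00538). In controls it averaged 5.73 ± 0.07 in polysomal and 5.59 ± 0.10 in total arrays, a difference that was not called (0.14 ± 0.07, limma adjusted p = 0.103). Egfr probe sets thus did not share 1 direction, and the ones that read lower in polysomal RNA were the brighter ones.

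Erbb2 encodes a receptor that binds no EGF-family ligand by itself and works as the partner of the others. Its probe set 1424919_at gave 6.62, 6.84 and 6.79 in CD95L-T4 polysomal arrays, against 7.10, 7.29, 7.25 and 7.37 in CD95L-T4 total arrays. Control cultures gave 6.70, 6.64, 6.72 and 6.71 in polysomal arrays, against 7.31, 7.15, 7.0 and 7.23 in total arrays. The fractions did not overlap. The differences were the smallest among the receptor probe sets called lower, at -0.50 ± 0.09 in CD95L-T4 and -0.48 ± 0.08 in control cultures (limma adjusted p = 1.01e-04 and 6.41e-05), a 1.42-fold and a 1.39-fold lower signal.

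Fgfr1, an FGF receptor of neural stem cells, had 2 probe sets. For 1425911_a_at the signal was 8.25, 8.02 and 8.07 in CD95L-T4 polysomal arrays, against 8.98, 9.20, 9.0 and 9.44 in CD95L-T4 total arrays. In controls it was 7.89, 8.07, 8.06 and 8.01 in polysomal arrays, against 9.30, 9.07, 9.12 and 9.01 in total arrays. It was 2.06-fold lower in polysomal RNA of CD95L-T4 cultures (-1.04 ± 0.11, limma adjusted p = 2.87e-07) and 2.17-fold lower in that of controls (-1.12 ± 0.10, limma adjusted p = 3.37e-08). The brighter 1424050_s_at gave 9.07, 8.72 and 9.02 in CD95L-T4 polysomal arrays, against 9.59, 9.98, 9.40 and 9.94 in CD95L-T4 total arrays. In controls it gave 8.91, 8.95, 8.95 and 8.87 in polysomal arrays, against 9.97, 9.57, 9.58 and 9.56 in total arrays. Its total arrays were more spread than its polysomal arrays, and its differences were smaller, at -0.79 ± 0.14 and -0.75 ± 0.13 (limma adjusted p = 8.63e-05 and 5.91e-05).

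Fgfr2, another FGF receptor, had the dimmer 1420847_a_at and the brighter 1433489_s_at. The brighter one gave 6.82, 6.87 and 7.20 in CD95L-T4 polysomal arrays, against 7.5, 7.44, 7.56 and 7.68 in CD95L-T4 total arrays. In control polysomal arrays it gave 6.95, 7.09, 7.03 and 6.95, against 7.59, 7.64, 7.58 and 7.71 in control total arrays. It was 1.5-fold lower in polysomal RNA of CD95L-T4 cultures (-0.58 ± 0.09, limma adjusted p = 3.40e-05) and 1.54-fold lower in controls (-0.63 ± 0.08, limma adjusted p = 5.40e-06). For the dimmer one the differences were -0.74 ± 0.13 in CD95L-T4 and -0.58 ± 0.12 in control cultures, and its groups did not overlap either, with polysomal arrays between 5.78 and 6.30 and total arrays between 6.34 and 6.87.

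Fgfr3 encodes an FGF receptor that also marks astrocytes and their precursors. Probe set 1425796_a_at gave 6.52, 6.64 and 6.23 in CD95L-T4 polysomal arrays, against 8.18, 7.68, 7.79 and 7.80 in CD95L-T4 total arrays. Controls read 6.79, 6.49, 6.35 and 6.05 in polysomal arrays, against 7.48, 7.92, 7.86 and 7.88 in total arrays. The polysomal signal was 2.64-fold lower in CD95L-T4 cultures (-1.40 ± 0.16, limma adjusted p = 9.52e-07) and 2.58-fold lower in controls (-1.37 ± 0.15, limma adjusted p = 3.92e-07). The brighter 1421841_at was 8.42, 8.4 and 8.65 in CD95L-T4 polysomal arrays, against 9.53, 9.65, 9.55 and 9.60 in CD95L-T4 total arrays. In controls it was 8.37, 8.49, 8.38 and 8.29 in polysomal arrays, against 9.52, 9.45, 9.61 and 9.36 in total arrays. Both Fgfr3 probe sets therefore lay more than 1 log2 unit lower on average, the second at -1.09 ± 0.08 and -1.10 ± 0.08 (limma adjusted p = 1.10e-08 and 2.09e-09).

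**Figure D2:**
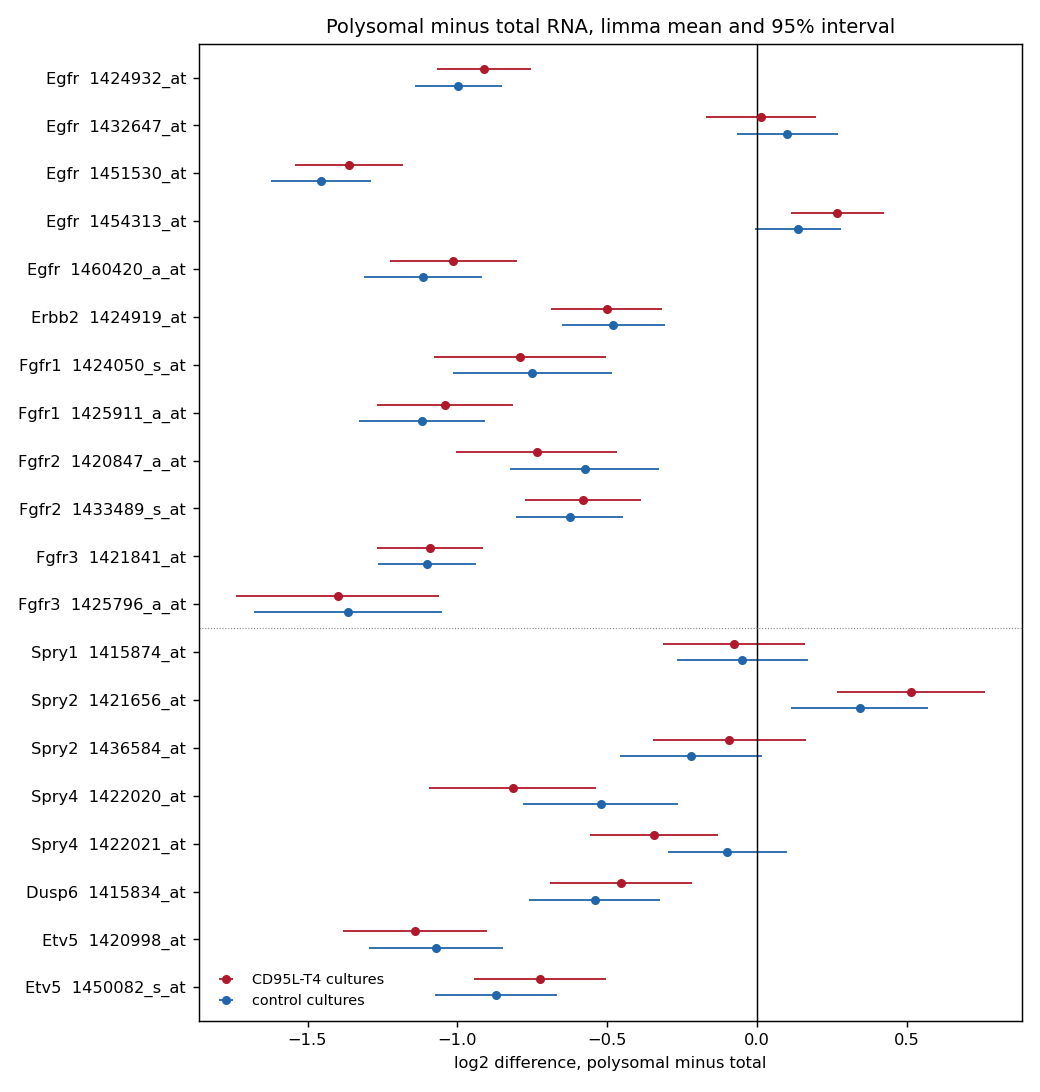
Polysomal minus total log2 difference (horizontal axis) of the 20 member probe sets, with receptors above the dotted line and feedback and target genes below it; points are limma means, bars are 95% confidence intervals, red is CD95L-T4 cultures and blue control cultures. The intervals of 10 receptor probe sets lie left of 0 in both cultures, and the intervals of Spry1 1415874_at and Spry2 1436584_at include 0 in both.

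The Sprouty proteins are cytoplasmic inhibitors of receptor tyrosine kinase signalling. Spry1 1415874_at gave 11.37, 11.45 and 11.92 in CD95L-T4 polysomal arrays, against 11.57, 11.64, 11.68 and 11.74 in CD95L-T4 total arrays. In controls it gave 11.42, 11.46, 11.70 and 11.61 in polysomal arrays, against 11.60, 11.50, 11.62 and 11.67 in total arrays. The fractions overlapped in both cultures, and the difference was not called (-0.08 ± 0.11 in CD95L-T4 and -0.05 ± 0.10 in controls, limma adjusted p = 0.599 and 0.708). The 95% interval in controls, from -0.27 to 0.17, does not reach the size of any called receptor difference in controls. In CD95L-T4 cultures polysomal replicate 3, at 11.92, decided the value: without it the difference was -0.25 and was called (limma adjusted p = 0.0344).

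Spry2 had a bright and a dim probe set. The bright 1436584_at gave 10.41, 9.91 and 10.45 in CD95L-T4 polysomal arrays, against 10.41, 10.45, 10.21 and 10.33 in CD95L-T4 total arrays. In controls it read 9.98, 10.12, 10.40 and 10.30 in polysomal arrays, against 10.40, 10.44, 10.40 and 10.44 in total arrays. Neither difference was called (-0.09 ± 0.12 and -0.22 ± 0.11, limma adjusted p = 0.557 and 0.106). Without CD95L-T4 polysomal replicate 2, at 9.91, the value in CD95L-T4 cultures was 0.08 (limma adjusted p = 0.562). The control value crossed the threshold when control polysomal replicate 3 was left out (-0.29, limma adjusted p = 0.04998) or, through a smaller pooled spread, when CD95L-T4 polysomal replicate 2 was (-0.22, limma adjusted p = 0.0356).

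The dim Spry2 probe set 1421656_at, at the 30.9th percentile of brightness, gave 5.14, 5.54 and 5.50 in CD95L-T4 polysomal arrays, against 4.71, 4.83, 4.85 and 5.13 in CD95L-T4 total arrays. Without CD95L-T4 it gave 5.37, 5.08, 5.10 and 5.40 in polysomal arrays, against 4.88, 4.90, 4.82 and 4.98 in total arrays. It was higher in polysomal RNA of both cultures, by 0.51 ± 0.12 and 0.34 ± 0.11 (limma adjusted p = 0.00121 and 0.0120). The Spry2 probe set called higher was thus the dimmer one.

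Spry4 was read by 1422020_at and 1422021_at. The dimmer 1422020_at gave 6.72, 6.42 and 6.44 in CD95L-T4 polysomal arrays, against 7.41, 7.23, 7.52 and 7.21 in CD95L-T4 total arrays. In controls it gave 6.67, 6.82, 6.72 and 6.70 in polysomal arrays, against 6.90, 7.14, 7.37 and 7.59 in total arrays. It was lower in polysomal RNA in both, at -0.82 ± 0.13 in CD95L-T4 cultures (limma adjusted p = 4.52e-05) and -0.52 ± 0.12 in controls (limma adjusted p = 0.00137).

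The brighter Spry4 1422021_at gave 7.73, 7.68 and 7.44 in CD95L-T4 polysomal arrays, against 7.98, 7.87, 8.0 and 7.99 in CD95L-T4 total arrays. Controls gave 7.83, 7.80, 7.81 and 7.80 in polysomal arrays, against 7.67, 7.79, 8.08 and 8.10 in total arrays. The difference was called in CD95L-T4 cultures (-0.34 ± 0.10, limma adjusted p = 0.00859) but not in controls (-0.10 ± 0.09, limma adjusted p = 0.388), and the test of the difference between these values did not pass (-0.24 ± 0.14, limma adjusted p = 0.897). Without CD95L-T4 polysomal replicate 3 the call in CD95L-T4 cultures was lost (-0.26, limma adjusted p = 0.0614).

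Dusp6 encodes a phosphatase that inactivates ERK, and its probe set 1415834_at was brighter than 98.5% of probe sets. It gave 12.42, 11.99 and 12.59 in CD95L-T4 polysomal arrays, against 12.70, 12.75, 12.82 and 12.88 in CD95L-T4 total arrays. Control cultures gave 12.07, 12.22, 12.26 and 12.36 in polysomal arrays, against 12.69, 12.78, 12.80 and 12.81 in total arrays. Every polysomal array lay below every total array. The signal was 1.37-fold lower in polysomal RNA of CD95L-T4 cultures (-0.45 ± 0.11, limma adjusted p = 0.00235) and 1.46-fold lower in controls (-0.54 ± 0.10, limma adjusted p = 2.27e-04). Without CD95L-T4 polysomal replicate 2, at 11.99, the difference in CD95L-T4 cultures was -0.28 and was still called (limma adjusted p = 0.0148).

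Etv5 encodes an ETS transcription factor that ERK signalling induces. Probe set 1420998_at gave 9.39, 8.87 and 8.78 in CD95L-T4 polysomal arrays, against 10.15, 10.26, 10.07 and 10.14 in CD95L-T4 total arrays. In controls it gave 9.03, 9.18, 9.07 and 9.18 in polysomal arrays, against 10.07, 10.22, 10.18 and 10.28 in total arrays. The difference, -1.14 ± 0.11 and -1.07 ± 0.11 (limma adjusted p = 1.99e-07 and 1.15e-07), lay within the range of the called receptor differences. The brighter 1450082_s_at gave 9.90, 9.47 and 9.78 in CD95L-T4 polysomal arrays, against 10.26, 10.61, 10.33 and 10.57 in CD95L-T4 total arrays. In controls it read 9.54, 9.67, 9.61 and 9.70 in polysomal arrays, against 10.51, 10.50, 10.43 and 10.56 in total arrays. It was lower too, at -0.73 ± 0.10 and -0.87 ± 0.10 (limma adjusted p = 1.24e-05 and 4.84e-07).

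For the 6 genes with 2 probe sets, the gap between their fraction differences was tested by an exact permutation test over the arrays of a culture, two-sided and adjusted over the 6 genes. Each gap is the probe set of lower number minus that of higher number. The permutation test was chosen after the values had been seen. In CD95L-T4 cultures the gaps of Spry4 (-0.47) and Etv5 (-0.42) reached the smallest p that 3 against 4 arrays allow, 0.0286, but not the threshold after adjustment (exact permutation, adjusted p = 0.0857 each). The gaps of Fgfr1 (0.25) and Spry2 (0.61) did not pass there either (exact permutation, adjusted p = 0.171 each). Nor did those of Fgfr2 (-0.15) and Fgfr3 (0.31) in CD95L-T4 cultures (exact permutation, adjusted p = 0.343 each). In control cultures Fgfr1 1424050_s_at was less depleted than 1425911_a_at (0.37), and Spry2 1421656_at, called higher, lay above 1436584_at (0.56). Spry4 1422020_at was more depleted than 1422021_at (-0.42), and Etv5 1420998_at more than 1450082_s_at (-0.20). These 4 gaps were each at the smallest possible exact p of 0.0286 (exact permutation, adjusted p = 0.0429). The gaps of Fgfr2 (0.05) and Fgfr3 (0.26) did not pass in controls (exact permutation, adjusted p = 0.771 and 0.24). With any 1 control array left out, none of the 4 gaps passed (exact permutation, adjusted p = 0.0571 or 0.0857). The smallest possible exact p, 0.0286, was the same as with all control arrays. The sizes then lay between 0.33 and 0.41 for Fgfr1, 0.445 and 0.675 for Spry2, -0.46 and -0.37 for Spry4, and -0.245 and -0.182 for Etv5. The Spry2 probe sets are the pair that read on opposite sides of 0.

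The genes whose signal followed the most depleted members over the 15 arrays are given as a description only, since all share the step between the fractions. Egfr 1451530_at was followed most closely by Ero1a (r = 0.997), an oxidase of the endoplasmic reticulum, by Tpp1 (r = 0.997), a lysosomal peptidase, and by Rtn3 (r = 0.996), a membrane protein of the endoplasmic reticulum, and 1025 genes exceeded an r of 0.95. For Fgfr3 1425796_a_at these were Atad1 (r = 0.983), Crnkl1 (r = 0.982) and Acp2 (r = 0.982), with 432 genes above 0.95. For Fgfr1 1425911_a_at they were Adgrg1 (r = 0.991), Prep (r = 0.99) and Phka1 (r = 0.989), with 755 genes above 0.95. Such closeness was thus common among the genes measured.

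Other genes of the pathway were grouped by role, each gene by its brightest probe set, beside a median over all genes of 0.07 in CD95L-T4 and 0.10 in control cultures. Of all 12393 genes, 21.8% were lower and 29.6% higher in CD95L-T4 cultures, and 23.2% lower and 33.5% higher in controls. List counts are to be read beside these shares, and as a description, since the lists were chosen with earlier results of these data known. Of 14 other ERBB and FGF receptors and co-receptors, 10 were lower and 0 higher in CD95L-T4 cultures, with a median of -0.60, and 9 were lower and 1 higher in controls, with a median of -0.55. The falls were led by cell-surface heparan sulphate proteoglycans that present FGFs to their receptors. In CD95L-T4 cultures these were Gpc1 (-1.44 ± 0.10), Gpc6 (-1.23 ± 0.18) and Sdc1 (-1.19 ± 0.09), and in controls Gpc4 (-1.62 ± 0.11), Gpc1 (-1.43 ± 0.09) and Gpc6 (-1.27 ± 0.17). Fgfr4, another FGF receptor, was the only gene of the list called higher in controls (0.31 ± 0.10), and that call was lost when control total replicate 1 (0.27), control polysomal replicate 3 (0.27) or control polysomal replicate 4 (0.27) was left out. Of 41 further receptor tyrosine kinases, 11 were lower and 4 higher in CD95L-T4 cultures (median 0.00), and 13 were lower and 9 higher in controls (median 0.10). Ntrk2, the receptor of BDNF, fell by 1.08 in CD95L-T4 and by 1.13 in control cultures, and the ephrin receptor Epha5 fell by 0.96 and 1.20, whereas the Wnt co-receptor Ryk was higher by 0.57 and 0.77.

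Of 29 ligands, 7 were higher and 2 lower in CD95L-T4 cultures (median 0.08), and 10 were higher and 2 lower in controls (median 0.17). The shares of ligands called higher were near those of all genes, 29.6% in CD95L-T4 and 33.5% in control cultures. Only 3 of the 29 were brighter than the median probe set. The largest rises in CD95L-T4 cultures were those of Fgf14 (0.78 ± 0.13), Fgf11 (0.66 ± 0.14) and Fgf1 (0.46 ± 0.13), the last a call that was lost without CD95L-T4 polysomal replicate 3 (0.32). The CD95L-T4 count was 5 higher and 1 lower without polysomal replicate 2, and 4 higher and 1 lower without polysomal replicate 3. In controls the largest rises were those of Fgf12 (0.64 ± 0.13), Fgf11 (0.58 ± 0.13) and Fgf14 (0.56 ± 0.12). Fgf12 was dim, averaging 4.63 in control polysomal and 3.99 in control total arrays. Marker lists without a gene above the median brightness had control medians of 0.23 (microglia), 0.195 (endothelium), 0.06 (fibroblasts) and 0.27 (ependyma). The part of dimness in the ligand rises was not tested. Fgf11, Fgf12 and Fgf14 encode FGF homologous factors that act mainly inside the cell. Hbegf, an EGF-family ligand made as a membrane protein, was lower, at -0.42 ± 0.09 in CD95L-T4 and -0.25 ± 0.08 in control cultures, and Tgfa, another, at -0.20 ± 0.07 and -0.23 ± 0.07. With arrays shifted to equal medians or quantile normalised together, the Tgfa calls of both cultures were lost (-0.11 and -0.12 in CD95L-T4 cultures, -0.14 under either in controls), as was the Hbegf call in controls (-0.15 under either). The Tgfa call in CD95L-T4 cultures was also lost in a fit of the compared groups alone, under array weights, and without CD95L-T4 polysomal replicate 2 or 3 or CD95L-T4 total replicate 2 or 4 (-0.20 to -0.18). That of Hbegf in controls was lost without control total replicate 2 (-0.17) or control polysomal replicate 2 or 3 (-0.22 each).

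Of all genes, 29.6% were higher and 21.8% lower in CD95L-T4 cultures, and 33.5% higher and 23.2% lower in controls. Among 17 adaptors, which link receptors to RAS, 4 were higher and 4 lower in CD95L-T4 cultures (median 0.08), and 3 were higher and 5 lower in controls (median -0.02). The number higher in CD95L-T4 cultures was 6 without polysomal replicate 2 and 2 without polysomal replicate 3. The FGF receptor substrate Frs3 was higher in both, by 0.43 ± 0.12 and 0.71 ± 0.11, while the docking protein Gab1 (-0.59 ± 0.08 and -0.62 ± 0.07) and the adaptor Crkl (-0.57 ± 0.12 and -0.63 ± 0.11) were lower in both. Of the 12 genes from RAS to ERK, 4 were higher and 6 lower in each culture, with medians of -0.24 and -0.20. In CD95L-T4 cultures the number lower was 3 without polysomal replicate 2. Rras and Nras, both RAS-family GTPases, were higher by 1.11 ± 0.09 and 0.68 ± 0.08 in CD95L-T4 cultures and by 1.19 ± 0.08 and 0.63 ± 0.08 in controls. The ERK kinases gave opposite readings in both cultures. Map2k2 was higher, by 0.81 ± 0.12 in CD95L-T4 and 0.59 ± 0.11 in control cultures, and Map2k1 was lower, at -0.57 ± 0.12 and -0.76 ± 0.12.

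For the next 2 lists the shares of all genes were again 29.6% higher and 21.8% lower in CD95L-T4 cultures, and 33.5% and 23.2% in controls. Of 14 other feedback inhibitors, 8 were higher and 1 lower in CD95L-T4 cultures (median 0.33), and 8 were higher and 3 lower in controls (median 0.30). Without CD95L-T4 polysomal replicate 3, 7 were higher and 2 lower in CD95L-T4 cultures. The phosphatases Dusp1, Dusp2 and Dusp10 were higher by 0.61 ± 0.08, 0.60 ± 0.10 and 0.57 ± 0.12 in CD95L-T4 cultures and by 0.67 ± 0.07, 0.88 ± 0.09 and 0.88 ± 0.11 in controls. Cbl, the ubiquitin ligase that sends activated EGF receptor to degradation, was lower, at -0.87 ± 0.22 in CD95L-T4 and -1.31 ± 0.20 in control cultures. In controls Spred1, a relative of the Sprouty proteins, was lower, at -0.31 ± 0.08, and the phosphatase Dusp16 at -0.25 ± 0.10, a call that was lost under equal medians (-0.16) and when any one control array was left out. Of 19 other ETS factors and ERK target genes, 9 were higher and 3 lower in CD95L-T4 cultures (median 0.22), and 8 were higher and 4 lower in controls (median 0.21). Without CD95L-T4 polysomal replicate 2, 10 were higher and 1 lower in CD95L-T4 cultures: the ETS factor Elk4 kept its call (-0.30, limma adjusted p = 0.0300), while the ETS factor Ets1 (-0.26) and the cyclin gene Ccnd1 (-0.145) lost theirs (limma adjusted p = 0.0762 and 0.170). Without CD95L-T4 polysomal replicate 3, 6 were higher and 3 lower, with a median of 0.04. Etv4, a close relative of Etv5, was higher by 1.25 ± 0.16 in CD95L-T4 and 1.25 ± 0.15 in control cultures. The immediate early genes Ier3 and Ier2 were higher too, by 1.11 ± 0.11 and 0.74 ± 0.11 in CD95L-T4 cultures and by 1.31 ± 0.10 and 0.99 ± 0.10 in controls. Etv5 and Etv4 therefore lay on opposite sides in both cultures.

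**Figure D3:**
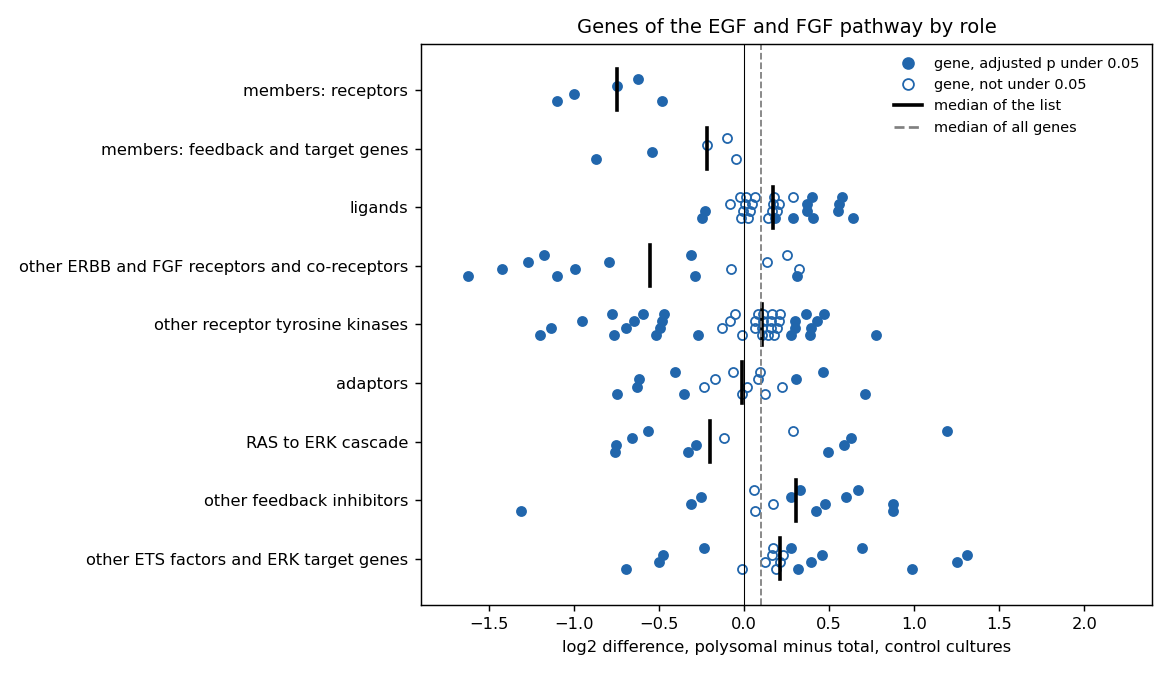
Polysomal minus total log2 difference in control cultures (horizontal axis) of each measured gene by role, with filled points for genes at an adjusted p under 0.05 and open points for the others; black bars are list medians and the dashed line is the median of all genes, 0.10. The 5 member receptors lie between -1.10 and -0.48, with Etv4 at 1.25 and Ier3 at 1.31 on the right.

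The second comparison asked whether CD95L-T4 changes the level of these mRNAs, in polysomal or in total RNA. In polysomal RNA 0 of the 20 members were called by limma, as were 0% of all probe sets, and 0 had an unadjusted p under 0.05, against 2184 of all probe sets. In total RNA 0 of 20 were called, again 0% of all probe sets, with 0 at an unadjusted p under 0.05, against 846 of all. Member differences, CD95L-T4 minus control, lay between -0.20 and 0.16 in polysomal RNA and between -0.14 and 0.14 in total RNA, and the smallest adjusted p was 0.542 and 0.997. All 20 confidence intervals in each fraction stayed within 1.5-fold in either direction. The same held for 95.9% of all probe sets in polysomal and 98.2% in total RNA, and smaller changes were not resolved.

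Of the receptors, Egfr 1424932_at averaged 8.47 ± 0.13 in CD95L-T4 polysomal against 8.45 ± 0.08 in control polysomal arrays, and 9.39 ± 0.02 in CD95L-T4 total against 9.45 ± 0.05 in control total arrays (SD). Fgfr1 1424050_s_at averaged 8.94 ± 0.19 in CD95L-T4 polysomal against 8.92 ± 0.04 in control polysomal arrays, and 9.73 ± 0.28 against 9.67 ± 0.20 in total RNA. None of these differences was called. The lowest differences in polysomal RNA were those of both Spry4 probe sets. Spry4 1422020_at averaged 6.53 ± 0.17 in CD95L-T4 polysomal against 6.73 ± 0.07 in control polysomal arrays (-0.20 ± 0.13, limma adjusted p = 0.625). Spry4 1422021_at averaged 7.62 ± 0.16 in CD95L-T4 polysomal against 7.81 ± 0.01 in control polysomal arrays (-0.19 ± 0.10, limma adjusted p = 0.542). All 3 CD95L-T4 arrays of 1422021_at, at 7.44 to 7.73, lay below the 4 control arrays, at 7.80 to 7.83, but the difference did not pass.

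The difference between the effect in polysomal and in total RNA, the interaction, was called by limma for 0 of 20 members and for 0% of all probe sets, with 0 members and 992 of all probe sets at an unadjusted p under 0.05. It lay between -0.29 for Spry4 1422020_at (± 0.18, limma adjusted p = 0.897) and 0.17 for Spry2 1421656_at (± 0.16, limma adjusted p = 0.902). Among the members only the interval of Spry4 1422020_at, from -0.67 to 0.09, reached beyond 1.5-fold. Of all probe sets, 84.2% had an interaction interval within 1.5-fold. None of the pathway genes in the other lists was called for CD95L-T4 in either fraction or for the interaction.

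CD95L-T4 polysomal replicate 2 lay lowest of its group for Dusp6 (11.99), Spry2 1436584_at (9.91), Etv5 1450082_s_at (9.47) and Fgfr1 1424050_s_at (8.72). Without this array 1386 of all 22626 probe sets were called in polysomal RNA, and 0 of the 20 members. At so small a share, 0 of 20 says little about the members. The Dusp6 value, 0.11 ± 0.11 with all arrays (limma adjusted p = 0.780), was then 0.28 (limma adjusted p = 0.0754). Spry2 1436584_at was then at 0.23 and Etv5 1450082_s_at at 0.21 (limma adjusted p = 0.209 and 0.230). Dusp6 and these 2 were the members with an unadjusted p under 0.05, 3 of 20. Of all 22626 probe sets 4906 had one, a larger share. For the interaction, 2 of 20 members reached an unadjusted p under 0.05 without this array, Dusp6 at 0.26 and Spry2 1436584_at at 0.30. Of all 22626 probe sets 3540 did, again a larger share.

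**Figure D4:**
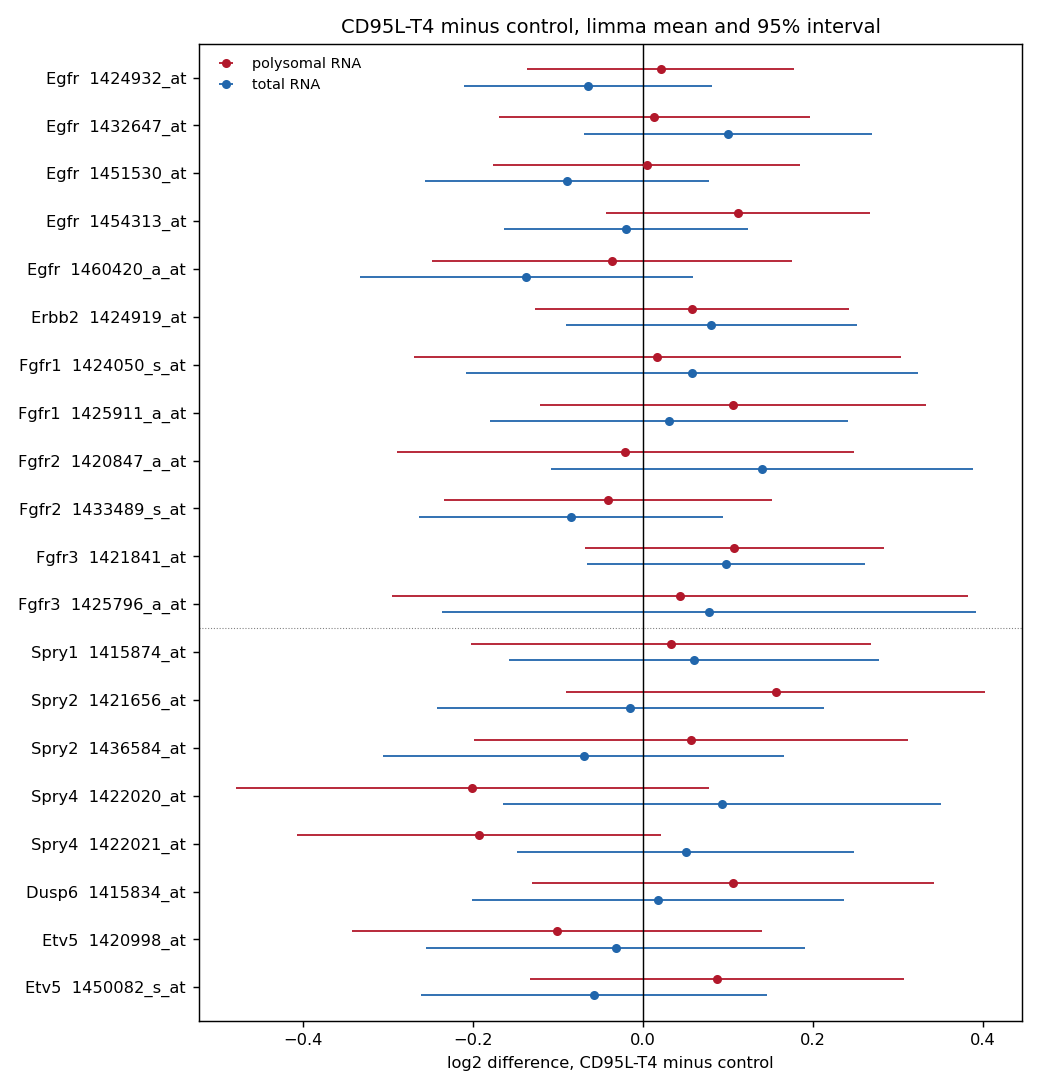
CD95L-T4 minus control log2 difference (horizontal axis) of the 20 member probe sets, with receptors above the dotted line and feedback and target genes below it; points are limma means, bars are 95% confidence intervals, red is polysomal and blue total RNA. All intervals include 0, and all points lie between -0.20 and 0.16.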

How the data were processed

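The deposited table gives log2 signal per probe set for the 15 arrays, normalised between arrays by the authors, to judge by nearly equal array medians. The normalisation method is not given in the sources used here. From it the 64 Affymetrix control probe sets among 22690 were left out. Platform annotation gave 1 gene for 20380 of the probe sets tested, several for 691 and none for 1555. The reference gene table (GRCm38.p6) served only for names and start sequences, and held 12369 of 12393 genes. A gene in a list is represented by its brightest probe set.

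Group means were fitted to all 4 groups together with limma 3.58.1 (R 4.3.3), with a moderated two-sided test. P-values were adjusted over all 22626 probe sets, threshold 0.05. The steps were tested on simulated data. Python 3.11.15, pandas 2.3.3 and matplotlib 3.10.9 drew sequences and plots. Arrays carry no read depth, so their number limits the precision. No 2 arrays held identical values.

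All member probe sets are named. From each list up to 3 genes higher and 3 lower were eligible, by size among those called. Most of those in the pathway lists are given, and none of those in the cell type marker lists. The pathway genes left out were not always the smallest, as with the adaptor Ptpn11 (-0.75 in controls). Members and lists were chosen with earlier results of these data known. Arrays of the same replicate number deviated together with correlations between -0.23 and 0.20 only. Pairing by number was thus not seen, but it is not excluded, since noise between arrays can hide a shared culture. Alternatives were 3 other scalings, tests without the 25% or 50% dimmest probe sets, other variance models, a replicate block, a size threshold of 0.5 and leaving out each array. The list counts without CD95L-T4 polysomal replicate 2 or 3 were chosen after seeing the data.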

Additional observations from a re-analysis of the deposited data

Results flagged for a closer look

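Of the 60 sets of 4 arrays examined (20 member probe sets in the 3 groups of 4), 3 (5%) held 1 array far from the other 3, about the 1 in 20 that chance gives. Control total replicate 1 read 9.97 for Fgfr1 1424050_s_at, against 9.56 to 9.58 in the other control total arrays. The same array read 7.48 for Fgfr3 1425796_a_at, against 7.86 to 7.92. CD95L-T4 total replicate 2 read 7.87 for Spry4 1422021_at, against 7.98 to 8.0 in the other CD95L-T4 total arrays.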

How the results depend on the processing

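In polysomal against total RNA, 14 to 17 members were called in CD95L-T4 and 13 to 16 in control cultures, and 0 in the other comparisons, under every alternative run. Without the 50% dimmest probe sets the counts were 14 and 13 of the 16 members kept, beside 8616 and 8867 of all probe sets kept. Those kept were the brighter 50% of 22626, so most of all bright probe sets were called too. Under the size threshold they were 14 and 13 of 20, beside 6994 and 7213 of all 22626. Without the 25% dimmest the counts were 17 and 15 of the 19 members kept, beside 11066 and 11814 of all probe sets kept. Both shares of all probe sets kept were larger than in the main fit. The other alternatives kept all 20 members, and in the main fit 51.3% and 56.1% of all probe sets were called. With the replicate block over all arrays the member counts were 17 and 15, and 0 elsewhere. The block changed no member's call. Of 2515 repeated member values, 2502 kept their call or lack of one, 6 lost and 7 gained one, and 0 called values reversed. Values not called changed sign somewhere for 13 of 20 members in polysomal and 9 of 20 in total RNA. Under a size threshold of 0.5, Erbb2 and Spry2 1421656_at in controls and Egfr 1454313_at, Spry4 1422021_at and Dusp6 in CD95L-T4 cultures fell below it. Gained calls in controls were Egfr 1454313_at, higher by 0.23 under equal medians and 0.18 without control total replicate 3, and Spry2 1436584_at, lower under a fit of the compared groups alone (-0.22) or array weights (-0.22). The causes were not tested. Of 2824 repeats of listed genes, 106 lost the call. The 4 probe set gaps called in controls did not pass with 1 control array left out (exact permutation, adjusted p = 0.0571 or 0.0857), and kept their direction. The smallest possible exact p, 0.0286, was the same with and without that array. Dim probe sets, among them Egfr 1432647_at, 1454313_at and Spry2 1421656_at, limit what can be read from their values.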
